A study of Homo sapiens with 6 samples.

Results

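The amino acid and integrated stress response was examined across 43 genes in REH cells. These genes were chosen because earlier results of the same arrays showed many of them higher in replicate 1 of both groups than in replicates 2 and 3, so that difference is described here without a test. Members were found by matching the RefSeq accession of each catalogue probe to a gene of the list. All 43 genes had a probe, with 56 member probes among the 57176 probes of the array. After removal of probes near the level of the negative controls, 51 member probes of 41 genes were retained, of 27490 retained probes in all. The only probes of STC2 and CBS were not retained.

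REH is an established human cell line of B-cell precursor acute lymphoblastic leukemia, in which one ETV6 allele forms the ETV6/RUNX1 fusion and the other is deleted. The control group consisted of 3 samples that received a hairpin RNA (shRNA) labelled non-targeting, and the knockdown group of 3 samples transduced with an shRNA against the ETV6/RUNX1 fusion. Per the study's methods, both hairpins were lentiviral ETV6 hairpins of which only 1 hits the fusion transcript, both vectors carried green fluorescent protein (GFP), and GFP-positive cells were sorted before RNA isolation. No array of untransduced cells was included in these groups, and each group rests on a single hairpin in a single cell line.

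The integrated stress response slows general translation when kinases that sense amino acid shortage, unfolded protein, viral RNA or heme deficiency phosphorylate the translation factor eIF2alpha. The mRNA of the transcription factor ATF4 is then translated more, and ATF4, with partners of the C/EBP family, switches on amino acid transporters, enzymes of amino acid and one-carbon metabolism, and regulators that feed back on the pathway. Leukemic lymphoblasts are known for their dependence on external asparagine, which asparagine synthetase (ASNS) can replace.

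ATF4 and C/EBP proteins bind a composite element whose core was searched here as TGATGNAAN on both strands, from 250 bases before to 50 bases after the transcription starts of RefSeq on GRCh38.p14. The last letter of this search term allows any base, and no other motif was searched. Of the 43 members, 32 had a promoter in the table. The element was found in 10 of these 32 genes (31.2%) and in 4.45% of all 27305 genes of the table. Of 35116 single promoters, 3.61% held it, and of the 55 promoters of members, 12 did. Sequence was not used directly to choose the members. The list does hold genes of the ATF4 response, so the higher share among members is not independent of the choice. Sites upstream of the start are shown for 7 genes, with the matched element in capitals and each sequence read on the strand of its gene.
ASNS, minus strand, chr7:97872457-97872486: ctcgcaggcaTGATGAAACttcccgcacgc
ATF3, plus strand, chr1:212565206-212565235: aaggtcaggaTGATGGAAGgctgtcatatt
CEBPG, plus strand, chr19:33374061-33374090: gcgcggcgtcTGATGCAACctgccggcaac
CHAC1, plus strand, chr15:40953251-40953280: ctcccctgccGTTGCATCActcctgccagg
JDP2, plus strand, chr14:75427992-75428021: tatatagccggggcTGATGCAACccgtccc
MTHFD1L, plus strand, chr6:150866347-150866376: ccgccggctcTGATGCAATcgcgccgggcg
SLC1A5, minus strand, chr19:46784892-46784921: aggaagtggcTGATGCAAGctgtccagggt
The element of CHAC1 lies on the strand opposite to the gene. It began 68 bases before the start in ASNS, 16 in JDP2, 42 in CEBPG, 97 in SLC1A5, 129 in MTHFD1L, 191 in ATF3 and 210 in CHAC1. In SLC1A4, SLC3A2 and SLC7A1 the match overlapped or followed the start. Among genes with a retained probe, the element was found in 6 of 19 with a replicate 1 difference of at least 1 on the log2 scale and in 4 of 11 with a smaller one. A match is a description of letters and does not show binding.

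Values below are normalized intensities on a generalised log2 scale, on which a difference of 1 is 2-fold for bright probes and is understated for dim ones. They are comparable between arrays for one probe, not between probes. Across the 6 arrays, 45.8% to 50.9% of probes were well above background. Markers of B-cell precursors were well above background on all 6 arrays for 19 of 21 probes, among them CD79A, whereas the 2 probes of VPREB1 were not. The same held for 2 of 8 T cell probes, 2 of 7 erythroid probes and 3 of 7 monocyte and granulocyte probes, the latter being CD14, CSF1R and MPO. The ETV6 probe above background read 7.92, 8.05 and 8.37 in control replicates 1 to 3 and 7.50, 7.46 and 7.29 in knockdown replicates 1 to 3. All knockdown samples lay below all controls, with a difference of -0.70 ± 0.136 (SE, n = 3 per group) that did not pass the threshold of 0.05 (limma, adjusted p = 0.0513). Whether this probe lies in the part of ETV6 kept in the fusion was not determined. The study itself reports the silencing from Western blot and RT-qPCR of the fusion, which are separate from these array values. The 5 retained RUNX1 probes, which may also detect the RUNX1 transcript outside the fusion, differed by -0.26, -0.21, -0.19, -0.14 and 0.03, and none passed the threshold (limma, adjusted p from 0.510 to 0.945).

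Most members were higher in replicate 1 than in replicates 2 and 3, in both groups. The difference, the mean over both groups of replicate 1 minus the mean of replicates 2 and 3, was at least 1 for 27 of 51 retained probes, which belong to 24 genes, and at most -1 for none. Over all retained probes the shares were 0.848% and 0.105%, and 0.792% of retained catalogue probes were at least 1 higher. This contrast chose the members. The median difference was 1.01 over the member probes and 0.01 over all retained probes. In 41 of 51 member probes both replicate 1 arrays exceeded the other 4 arrays, against 15.2% of all retained probes. In RNA pooled over the sorted cells of a sample, fewer cells with a transcript and less of it per cell cannot be told apart. Within a group, the member probes had a median SD of 0.583, compared with 0.150 over all retained probes. Replicates 2 and 3 alone gave a median SD of 0.111 for the members. This SD over 2 arrays is not given for all probes, so it has no background here.

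**Figure D1:**
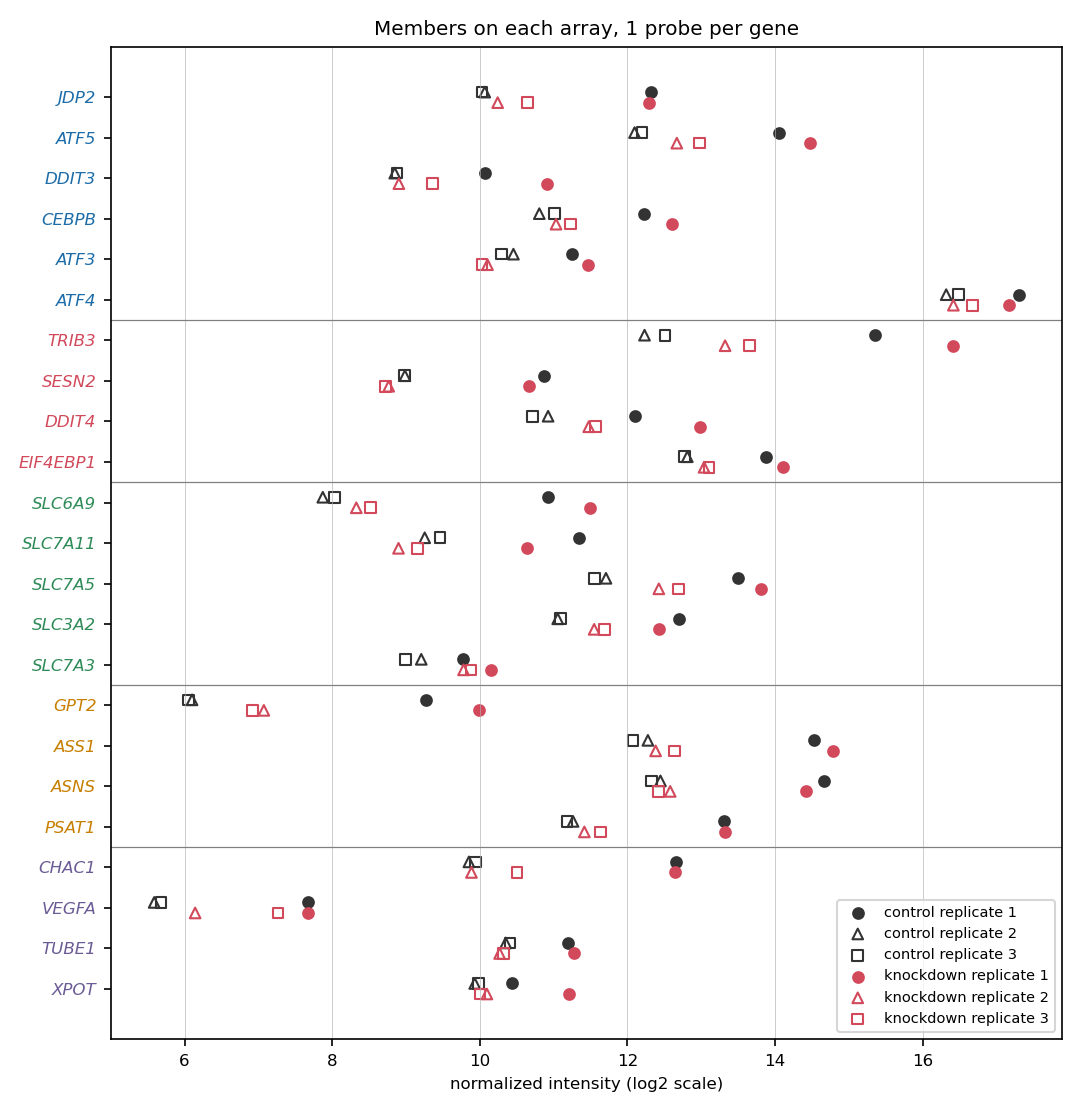
Normalized intensity on the log2 scale (x axis) of the 23 genes whose values are given on every array, 1 probe per gene, grouped by role from transcription factors at the top to other targets at the bottom. Filled circles are replicate 1 and open symbols replicates 2 and 3, black for control and red for knockdown; in TRIB3, GPT2 and SLC6A9 the filled circles stand apart from the open symbols by over 1 log2 unit.

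Among the 8 transcription factors, 5 of 11 retained probes reached a difference of 1, and the median was 0.76. ATF4, the central factor of the pathway, read 17.30, 16.32 and 16.49 in control replicates 1 to 3 and 17.17, 16.42 and 16.67 in knockdown replicates 1 to 3. Its replicate 1 arrays were the 2 highest, with a difference of 0.76 or 1.69-fold. JDP2, a repressor of the AP-1 family, read 12.32, 10.07 and 10.03 in controls and 12.30, 10.24 and 10.65 in knockdown samples. ATF5, a relative of ATF4 that is also controlled at translation, read 14.06, 12.10 and 12.20 in controls and 14.47, 12.67 and 12.97 in knockdown samples. The differences were 2.06 for JDP2 and 1.78 for ATF5, and for both genes the replicate 1 arrays stood clear of the other 4.

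DDIT3 encodes CHOP, a factor linked to cell death under prolonged stress. It read 10.07, 8.85 and 8.88 in controls and 10.91, 8.90 and 9.36 in knockdown samples, a difference of 1.49. CEBPB, a binding partner of ATF4, read 12.22, 10.81 and 11.02 in controls and 12.61, 11.03 and 11.23 in knockdown samples, a difference of 1.40. Both genes had their 2 highest values in replicate 1. The brightest probe of ATF3, an early stress-induced repressor, read 11.25, 10.45 and 10.30 in controls and 11.46, 10.10 and 10.03 in knockdown samples. Its difference of 1.14 was not shared by all 4 ATF3 probes, which gave 1.14, 0.75, 0.45 and -0.17. For the probe at -0.17 the values were 7.70, 7.69 and 7.60 in controls and 7.46, 7.84 and 7.86 in knockdown samples, so replicate 1 was not the highest in the knockdown group. CEBPG and NUPR1 had differences of 0.50 and 0.47.

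Of the 5 signalling regulators, 4 reached a difference of 1. TRIB3, a pseudokinase that binds ATF4 and dampens its activity, read 15.36, 12.23 and 12.51 in controls and 16.41, 13.32 and 13.66 in knockdown samples. The difference of 2.95 (7.75-fold) was close in size in the control group, at 2.99, and the knockdown group, at 2.92. SESN2, a leucine-binding inhibitor of mTORC1 signalling, read 10.87, 8.98 and 8.98 in controls and 10.66, 8.77 and 8.72 in knockdown samples, a difference of 1.90. DDIT4, which also restrains mTORC1, read 12.11, 10.93 and 10.72 in controls and 12.98, 11.48 and 11.57 in knockdown samples, a difference of 1.37. In all 3 genes both replicate 1 arrays were above the other 4. EIF4EBP1, a repressor of cap-dependent translation, read 13.88, 12.81 and 12.78 in controls and 14.11, 13.04 and 13.10 in knockdown samples, a difference of 1.07. GADD45A, a growth arrest gene, was the lowest of all members, at -0.24.

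All 10 retained transporter probes were higher in replicate 1, and 4 of them by at least 1. SLC6A9, which carries glycine, read 10.92, 7.87 and 8.03 in controls and 11.49, 8.33 and 8.52 in knockdown samples. Its difference of 3.02 (8.09-fold) was the largest among the transporters. A second SLC6A9 probe was not retained, being well above background on 1 array of each group, and no difference is given for it. SLC7A11, the cystine and glutamate exchanger, read 11.35, 9.25 and 9.46 in controls and 10.64, 8.90 and 9.15 in knockdown samples, a difference of 1.80. SLC7A5, which carries large neutral amino acids, read 13.50, 11.71 and 11.55 in controls and 13.81, 12.43 and 12.69 in knockdown samples, a difference of 1.56. Their replicate 1 arrays were the 2 highest in each case. SLC3A2, the partner subunit of both SLC7A5 and SLC7A11, read 12.69, 11.06 and 11.09 in controls and 12.43, 11.55 and 11.69 in knockdown samples. The SLC3A2 difference was 1.62 in controls and 0.81 in knockdown samples. SLC7A3, a carrier of cationic amino acids, read 9.77 and 9.21 in control replicates 1 and 2 and 10.16, 9.78 and 9.88 in knockdown samples, and control replicate 3 was lowest, 0.88 below knockdown replicate 3. Here all 3 knockdown samples lay above all 3 controls, control replicate 1 falling just below knockdown replicate 2. SLC1A5, SLC1A4, SLC7A1 and SLC38A2, carriers of neutral or cationic amino acids, had differences between 0.33 and 0.83.

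Among synthesis enzymes, 10 of 18 retained probes, of 9 genes, reached a difference of 1. GPT2, the mitochondrial alanine aminotransferase, had a difference of 3.10 or 8.55-fold, close to those of SLC6A9 and TRIB3. The order of these 3 genes depended on the scaling: with normexp and quantile normalization GPT2 had 2.56, below SLC6A9 at 2.77 and TRIB3 at 2.99, and with the processed signal it had 3.78. It read 9.27, 6.10 and 6.05 in controls and 9.99, 7.07 and 6.92 in knockdown samples. ASS1, which makes argininosuccinate on the way to arginine, read 14.52, 12.28 and 12.07 in controls and 14.79, 12.38 and 12.64 in knockdown samples. Its 2 probes gave 2.31 and 2.33. ASNS, whose promoter element is printed above, read 14.67, 12.45 and 12.33 in controls and 14.42, 12.58 and 12.42 in knockdown samples, a difference of 2.10 or 4.29-fold. Replicate 1 stood clear of the other arrays in all 3 genes.

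Serine synthesis was represented by all of its enzymes. PSAT1 read 13.31, 11.26 and 11.18 in controls and 13.33, 11.42 and 11.63 in knockdown samples, a difference of 1.95. PHGDH and PSPH, the first and last enzymes of the route, had differences of 1.16 and 0.88. Of the mitochondrial one-carbon enzymes that use serine, MTHFD2 had a difference of 1.21, SHMT2 of 1.00 and MTHFD1L of 1.01. The other 2 MTHFD1L probes gave 0.88 and 0.22, and ALDH1L2, of the same route, 0.10. PCK2, the mitochondrial phosphoenolpyruvate carboxykinase, had 1.44 at 1 probe and 0.69 at the other. CTH, of cysteine synthesis, had 0.32. The proline enzymes PYCR1 and ALDH18A1 had -0.12 and -0.19, and ALDH18A1 rests on 5 arrays because its spot on control replicate 3 carried an outlier flag. SHMT2 and MTHFD1L lay just inside the threshold of 1, whereas TUBE1, at 0.90, and PSPH lay just outside it.

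The remaining targets differed among themselves. CHAC1, which degrades glutathione, read 12.66, 9.85 and 9.94 in controls and 12.65, 9.89 and 10.50 in knockdown samples. Its 2 probes gave differences of 2.61 and 2.21, with replicate 1 highest in both groups. VEGFA, an angiogenic factor, read 7.67, 5.59 and 5.68 in controls and 7.67, 6.14 and 7.26 in knockdown samples. Knockdown replicate 3 came close to replicate 1 at this probe, which was well above background on 1 of 3 control arrays; the second VEGFA probe did not share this and read 5.75 and 5.76 in knockdown replicates 2 and 3. TUBE1, a tubulin, read 11.19, 10.35 and 10.41 in controls and 11.28, 10.27 and 10.32 in knockdown samples. XPOT, which exports tRNA from the nucleus, read 10.44, 9.93 and 9.98 in controls and 11.21, 10.10 and 10.00 in knockdown samples, and its difference of 0.82 was larger in knockdown samples (1.16) than in controls (0.48). VLDLR, a lipoprotein receptor, was near 0, at -0.02.

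**Figure D2:**
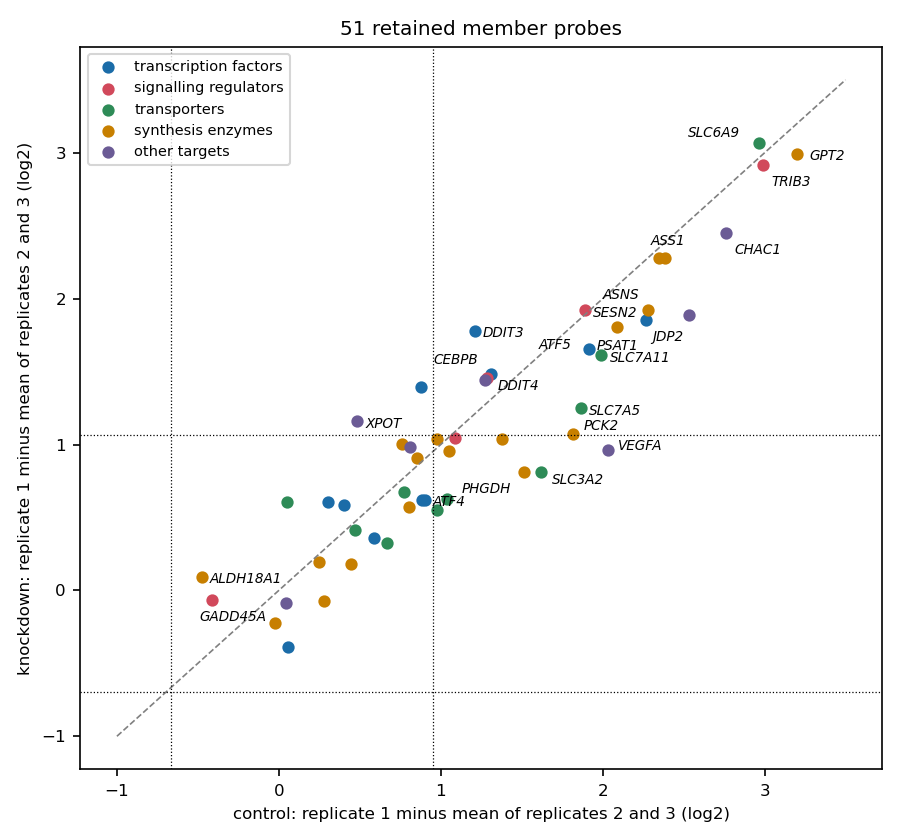
Replicate 1 minus the mean of replicates 2 and 3 (log2) in the control group (x axis) and the knockdown group (y axis) for 51 retained member probes, coloured by role. The dashed line marks equal differences and dotted lines the 1st and 99th percentiles of all retained probes; SLC6A9, GPT2 and TRIB3 lie near 3 on both axes, and SLC3A2 lies below the line, at 1.62 and 0.81.

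The 2 arrays of replicate 1 lay in different rows of the slide. All 6 arrays lay on 1 slide and were read in 1 scan, with control replicates 1 and 2 in the first row of the slide and the other 4 arrays in the second. The spike-in probes deviated by 0.46 in control replicate 1 and by -0.27 in knockdown replicate 1 from their mean over arrays. The mean over the retained member probes was 10.97 and 11.07 on the replicate 1 arrays and between 9.72 and 10.05 on the other 4. Day of culture, transduction and extraction are not given for these arrays, and their part in the difference was not tested.

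Genes of related pathways were set beside the members by lists that were drawn up with earlier results of these arrays known. Cytosolic aminoacyl-tRNA synthetases, which charge tRNAs and include known ATF4 targets, had a median difference of 0.80 over 15 retained probes, and 4 of these reached 1. CARS1 and GARS1 were highest, at 1.27 and 1.12, and EPRS1 and MARS1 lowest, at 0.48 and 0.56. Kinases and phosphatase subunits that act on eIF2alpha, with the eIF2B subunits, had a median of -0.05 over 16 probes. PPP1R15A, the stress-induced phosphatase subunit and itself an ATF4 target, was the only one to reach 1, at 1.07, and EIF2AK3, the kinase that senses unfolded protein in the endoplasmic reticulum, was lowest, at -0.57.

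Targets of ATF6 and XBP1, the other arms of the unfolded protein response, had a median of 0.22 over 17 probes. HERPUD1 was the only one to reach 1, at 1.50, followed by EDEM1 at 0.51, and SDF2L1 and CALR were lowest, at -0.40 and -0.20. Further ATF4 targets outside the member list, some of which the other lists also hold, had a median of 0.28 over 19 probes, and 2 reached 1, namely CARS1 and PPP1R15A. SHMT1, the cytosolic relative of SHMT2, was lowest, at -0.38. Of p53 targets, 1 of 18 probes reached 1, BBC3 at 1.17, and MDM2, the p53-induced inhibitor of p53, was lowest, at -0.79. None of the 6 NRF2 target probes and none of the 10 hypoxia target probes reached 1; their ranges were -0.16 to 0.22 and -0.25 to 0.29. None of the 19 retained B-cell precursor marker probes reached 1 either.

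**Figure D3:**
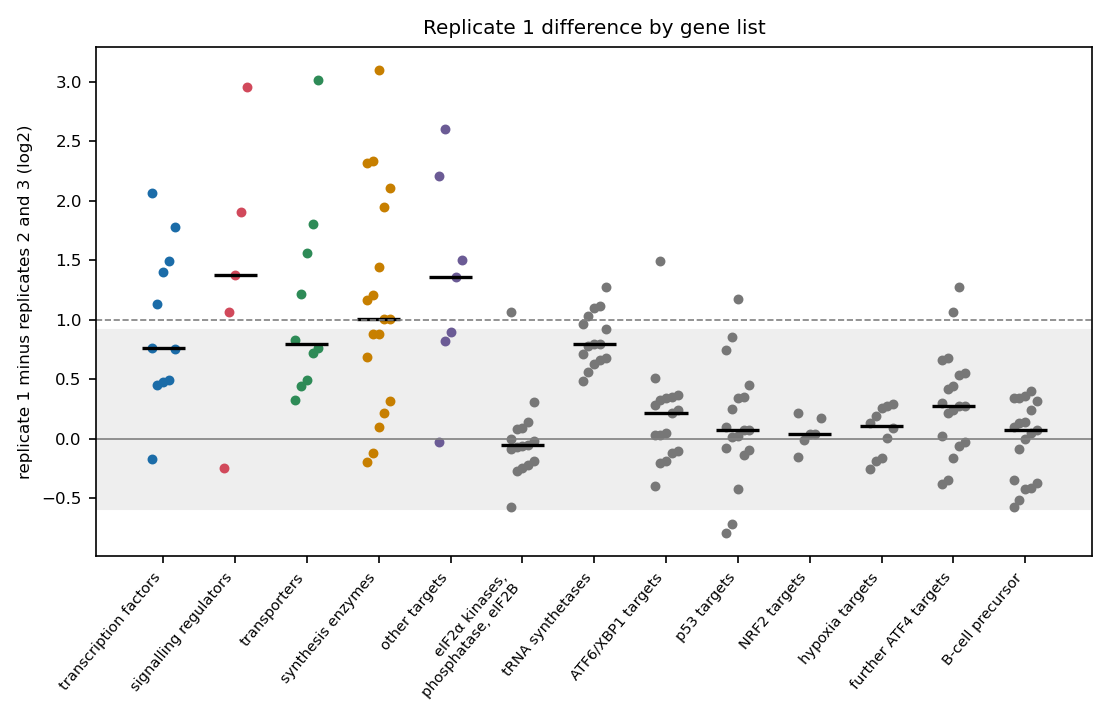
Replicate 1 minus replicates 2 and 3 (log2, y axis), averaged over both groups, for each retained probe of the 5 classes of members (coloured) and of the other lists (grey), with the median of each list as a bar. The dashed line marks 1 and the shaded band spans the 1st to the 99th percentile of all retained probes; the tRNA synthetases, with a median of 0.80, lie above the other grey lists.

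Whether silencing the fusion changed these genes was tested across all retained probes. In the fit without a replicate block, 0 of 51 member probes were called (limma, adjusted p from 0.243 to 0.998), and 1 had an unadjusted p under 0.05, compared with 12.5% of all retained probes. In the same fit 1.74% of all retained probes were called, 0.458% higher and 1.28% lower. Without the block, the SE of a member includes the distance of replicate 1 from the other arrays, and that of TRIB3 was 0.995. Same-numbered samples deviated together across all probes, so the fit with the replicate number as a block is given beside it. The numbers set replicate 1 clearly apart (0.426, against -0.331 to -0.264 for its crossed pairs), but replicates 2 and 3 hardly from each other: their matched pairs correlated at 0.287 and 0.204 and their crossed pairs at 0.187 and 0.170. With the block, 6 member probes of 6 genes were called, all higher in knockdown samples, compared with 3.78% of all retained probes called in either direction 1.35% called higher and 2.42% called lower. A total of 21 member probes had an unadjusted p under 0.05 in the blocked fit, compared with 18.8% of all retained probes.

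TRIB3 rose 2.14-fold after knockdown in the blocked fit (95% interval of the log2 difference 0.89 to 1.30, SE 0.0855, limma with block, adjusted p = 0.00283; without block 0.706), and the log2 differences in pairs 1 to 3 were 1.05, 1.09 and 1.15. GPT2 rose by 0.85 ± 0.0940 (limma with block, adjusted p = 0.00811; without block 0.793), with pair differences of 0.71, 0.97 and 0.87. DDIT4 rose by 0.76 ± 0.102 (limma with block, adjusted p = 0.0147; without block 0.570), with 0.87, 0.55 and 0.85. These 3 genes encode a feedback regulator, an enzyme and an mTORC1 inhibitor, and each was higher in 3 of 3 pairs. SLC6A9 rose by 0.50 ± 0.0862 (limma with block, adjusted p = 0.0340; without block 0.883), with 0.57, 0.45 and 0.48. ATF5 rose by 0.59 ± 0.102 (limma with block, adjusted p = 0.0354; without block 0.746), with 0.41, 0.57 and 0.78. SLC7A3 rose by 0.62 ± 0.117 (limma with block, adjusted p = 0.0451; without block 0.243), with 0.39, 0.57 and 0.88. The transporter SLC7A5 had a difference of 0.72 that did not pass the threshold (limma, adjusted p = 0.0689 with block and 0.648 without). Its pairs gave 0.31, 0.72 and 1.14. The dimmer probes of ASS1 and VEGFA came closer, with 0.54 and 0.42 (limma with block, adjusted p = 0.0507 and 0.0636). The brighter probes of these 2 genes gave 0.31 and 0.71 (limma with block, adjusted p = 0.216 and 0.236).

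TRIB3 was called in 13 of 13 blocked fits that differed in normalization, filter, prior, slide row or the pair left out, with differences from 1.07 to 1.45. GPT2 and DDIT4 were called in 9 of these 13, ATF5 in 8, SLC6A9 in 7, SLC7A3 in 6 and SLC7A5 in 3. With slide row as a further term 2 member probes were called, TRIB3 among them, and 1.34% of all retained probes. Leaving out pair 1 gave 10 called member probes with the block and 5 without it, beside 4.87% and 2.59% of all retained probes. Leaving out pair 2 or pair 3 gave 2 each with the block, beside 1.03% and 1.96%. Both arrays of pair 3 lay in the same slide row, those of pairs 1 and 2 in different rows. With slide row as a term, the knockdown difference therefore rests on pair 3 alone. In pairs 1 and 2 slide row and knockdown cannot be told apart. With 3 pairs, the lowest two-sided p of an exact sign-flip test of 1 gene is 0.25. The calls thus depend on the variance that limma pools over probes.

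The factors ATF4 and DDIT3 and the targets ASNS and CHAC1 did not pass the threshold in either fit. The factor ATF5, given above, passed it with the block. ATF4 differed by -0.14, 0.10 and 0.19 in the 3 pairs, with a mean of 0.05 (95% interval -0.19 to 0.29, blocked fit). ASNS differed by -0.25, 0.13 and 0.09, with a mean of -0.01 (95% interval -0.27 to 0.25). DDIT3 had pair differences of 0.84, 0.06 and 0.49, and CHAC1 of -0.01, 0.03 and 0.56. The second CHAC1 probe gave -0.45, 0.05 and 0.35. The pairs differed in sign in ATF4, ASNS and CHAC1, and in DDIT3 they had 1 sign but unequal sizes.

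**Figure D4:**
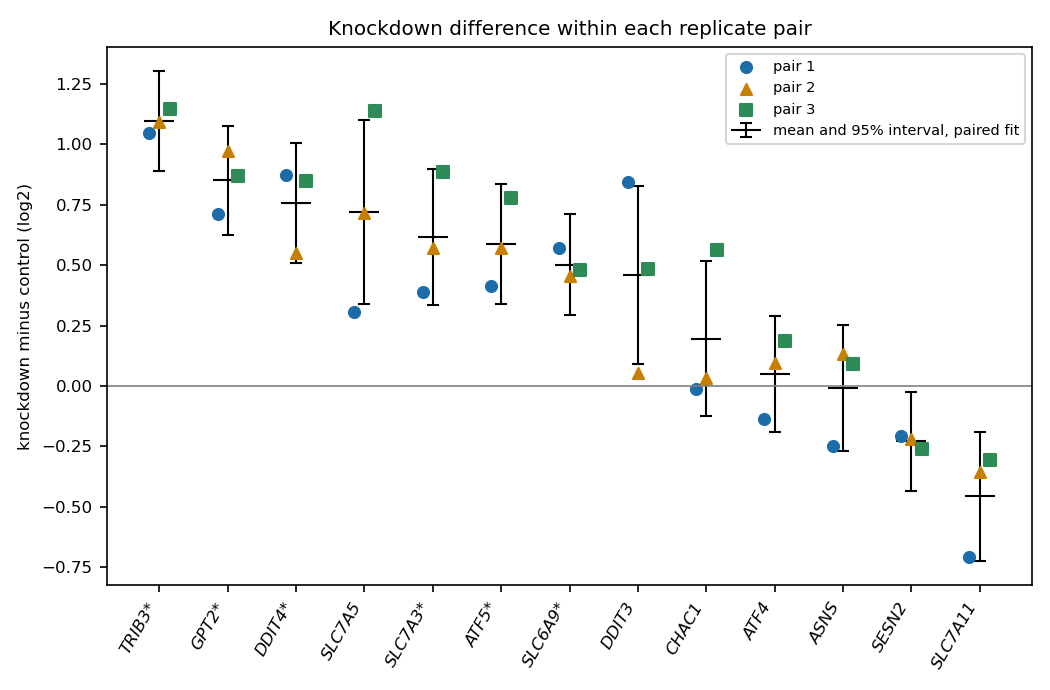
Knockdown minus control (log2, y axis) in replicate pairs 1, 2 and 3 for 13 members, with the mean and its 95% interval from the blocked fit as black bars and an asterisk after genes called in that fit. The TRIB3 points lie between 1.05 and 1.15, whereas those of ATF4 and ASNS lie on both sides of 0.

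By direction alone, 23 of 51 member probes were higher after knockdown in 3 of 3 pairs, compared with 20.8% of all retained probes, and 4 were lower in 3 of 3, compared with 21.4%. The 4 lower probes, chosen after their values were seen, were those of SLC7A11 (-0.71, -0.36 and -0.30), SESN2 (-0.21, -0.22 and -0.26), VLDLR (-0.30, -0.22 and -0.13) and 1 of 2 probes of SLC38A2 (-0.35, -0.28 and -0.30). None of them passed the threshold in the blocked fit, in which SLC7A11 had an adjusted p of 0.0888 (limma). Within SLC3A2-containing exchangers, SLC7A5 was thus higher and SLC7A11 lower in every pair, although neither passed the threshold. The member probes are correlated with each other, so these counts are not counts of independent events.

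Of the other lists, none of the eIF2alpha, tRNA synthetase, ATF6 and XBP1, NRF2 and further ATF4 target probes was called for knockdown in either fit. ADM, a hypoxia-induced peptide hormone, fell by 0.85 (limma without block, adjusted p = 0.0347; with block 0.0236). One probe of TP53INP1, a p53 target, was called lower with the block only. Among the markers, MPO, a granulocyte enzyme, fell by 2.02 (limma without block, adjusted p = 0.00107), as 1 of 3 retained monocyte and granulocyte probes, while ELANE, S100A8, S100A9 and FCGR3A were not well above background on any array. Without the block the lowest adjusted p of the 19 B-cell precursor probes was 0.0541 (limma), for CD22. With the block 4 were called, all higher, namely those of CD22, CD79B and 2 of IGLL1, against 1.35% of all retained probes called higher, while RAG2 and RAG1 had differences of -0.44 and -0.10. The part of these markers in the member differences was not tested.

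Whether the knockdown difference itself was another in replicate 1 than in replicates 2 and 3 was tested as an interaction. No member probe was called (limma), against 0.418% of all retained probes, and 9 of 51 had an unadjusted p under 0.05, against 8.31% of all. The lowest adjusted p was 0.274, for SLC3A2, whose knockdown difference was -0.26 in pair 1 and 0.49 and 0.60 in pairs 2 and 3. PHGDH and PCK2 were also lowest in pair 1, with -0.25, 0.39 and 0.51 for PHGDH and -0.18, 0.61 and 0.52 for PCK2. XPOT was highest in pair 1, with 0.77, 0.16 and 0.02. The interaction was below 0 for 34 of 51 member probes, with a median of -0.13, and for 50.1% of all retained probes, with a median of -0.0008.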

How the data were processed

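RNA of 3 control and 3 knockdown samples was hybridised in 1 color. Per the file headers, spot intensities were extracted with Feature Extraction 10.7.1.1; the deposited scanner files hold raw median intensities, a processed signal and other values (flags), none normalized between arrays. The authors also deposited normalized log2 values for 27869 probes. Here the VSN model was rewritten and fitted to raw median intensities (0.9 quantile of least squares kept); it understates differences of dim probes. Outlier spots were left out (907 over 6 arrays), no spot was saturated, and spots of a probe were averaged. Probes over 1.1 times the 0.95 quantile of 308 negative control spots on 2 of 3 arrays of a group were retained. Tests used limma 3.58.1 under R 4.3.3 (two-sided, Benjamini-Hochberg over all 27490 retained probes, threshold 0.05). The number of arrays limits the precision. The procedure was tested on simulated data.

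Members, gene lists and tests were chosen with earlier results of these data known. A gene was represented by its retained probe with the highest mean. Values are given on every array for ATF4, ATF3, DDIT3, ASNS, the 4 largest replicate 1 differences per class and genes called for knockdown. Knockdown statistics are given for called genes and the 4 largest differences. Beyond this rule, some knockdown values are given for ATF4, ASNS, DDIT3, CHAC1, ASS1 and VEGFA. The same holds for probes lower in every pair and for genes named with the interaction. Replicate numbers come from the sample titles. Deviations from the group means of same-numbered samples correlated at 0.426, 0.287 and 0.204, all over 0.1, so the numbers were taken to pair the samples; crossed pairs of replicates 2 and 3 correlated at 0.187 and 0.170. The study's methods name limma but give no model for the knockdown samples, and the fit without a block was used as the main one. The study calls the knockdown and control samples biological triplicates. Alternatives in normalization, filter, prior, block, slide row and samples left out were computed.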

Additional observations from a re-analysis of the deposited data

How the results depend on the processing

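The count of member probes at least 1 higher in replicate 1 stayed between 22 and 28 under all 13 alternatives. The count called for knockdown, 0 without a block, became 6 with the replicate block, 5 without the replicate 1 pair and 11 with spike-in scaling, while the share of all probes called went from 1.74% to 3.78%, 2.59% and 3.89%. Spike-in scaling moved the median of all probes by 0.35 and left limma with an infinite prior, that is 1 spread for every probe. With the block and a further change, chosen after seeing the data, it was, with the share of all probes called in brackets, 1 with the processed signal at its 75th percentile (1.57%), 8 with normexp and quantile (5.71%), 5 with the deposited log2 values (3.15%), 9 with spike-in scaling (2.84%), 1 with no filter (0.203%), 5 with the filter on probes well above background (3.24%), 6 with probes of a gene averaged (3.65%), 10 with an intensity trend and robust prior (6.15%), 2 with slide row as a term (1.34%), and 10, 2 and 2 without pair 1, 2 and 3 (4.87%, 1.03% and 1.96%). The interaction gave 4 calls with spike-in scaling, which called 7.22% of all probes, and between 0 and 1 when single arrays were left out, where the 1 call came without knockdown replicate 2 (0.393% of all probes). Without the block, leaving out 1 array turned the knockdown difference of GPT2 to -0.15 (without knockdown replicate 1) and that of SLC6A9 to -0.52 (without knockdown replicate 1) and -0.03 (without control replicate 2); over all arrays left out in turn, GPT2 ranged from -0.15 to 1.92, SLC6A9 from -0.52 to 1.49, TRIB3 from 0.12 to 2.09, ATF5 from 0.04 to 1.23, DDIT4 from 0.27 to 1.19, SLC7A5 from 0.30 to 1.34 and SLC7A3 from 0.45 to 0.84, and for 6 of the 7 genes the lowest value came without knockdown replicate 1. These fits leave replicate 1 unbalanced between the groups. No other setting turned the direction of these 7 differences. Of the 6 blocked calls, that of TRIB3 alone was made in all 13 blocked fits. These include the fit with slide row, in which the difference rests on pair 3 alone. Probes near background, such as VEGFA, have only a few arrays with measurable signal.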
